A study of Rattus norvegicus with 12 samples.

Results

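The genes described here encode stress neuropeptides, a peptide-binding protein and their receptors: Crh, Ucn, Crhbp, Crhr1 and Crhr2 of the corticotropin-releasing hormone (CRH) system, Adcyap1 and Adcyap1r1 of the PACAP system, and the receptor genes Avpr1a, Oxtr and Galr1. They were taken as a fixed list of 10 symbols, each matched to array probe sets annotated with that symbol alone. Of the 10 genes 8 had such a probe set, 1 each, among 17245 genes with a single-symbol probe set on the array. Crhr1 and Crhr2, the CRH receptor genes, had none in the annotation used and were not analysed here. All 8 passed the filter on low values (a mean log2 value above 4 over all arrays), as did 14847 genes in all.

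The samples were whole prefrontal cortex (PFC) from 12 adult male Sprague-Dawley rats, 1 array per rat. The 6 rats labelled Stress received inescapable footshock (FS) for 40 min at 0.8 mA, with 20 min of actual shock and gaps of 2 to 8 s. The 6 rats labelled Control received no shock and stayed in the home cage. All were killed 2 h after the session began, the stressed rats having gone back to their cages in between. PFC subregions were not separated, rats were housed in pairs with no cage given in the labels, and each mRNA level is a mean over all cells of the dissected piece. The p-values measure the spread between these samples.

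CRH is the hypothalamic peptide that starts the pituitary and adrenal response to stress. In the cortex it is made mainly by local inhibitory interneurons, where it acts as a neuromodulator, and the related peptide urocortin shares its receptors. PACAP, encoded by Adcyap1, is released by excitatory neurons and acts through PAC1, a receptor that raises cAMP and calcium. The V1a vasopressin receptor and the oxytocin receptor signal through Gq and calcium, while the galanin receptor GAL1 lowers cAMP through Gi.

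Several facts of the arrays bear on these genes. Median log2 values per array lay between 5.48 and 5.54, and correlations between arrays across probe sets ran from 0.994 to 0.998. Group means of Crh, Ucn, Avpr1a and Galr1 lay below all of these medians, and those of Oxtr lay near them. Glucocorticoid-induced genes separated the groups: the centred mean of 6 such genes was −0.300 to −0.112 in controls and 0.073 to 0.341 in stressed rats. Sgk1 and Tsc22d3 of this list were called in these same arrays (limma adjusted p = 0.00914 and 0.00112). The list was chosen with earlier results of these data known, so it is no independent check on the labels. The centred mean of 6 immediate-early genes overlapped, at −0.482 to 0.182 in controls and −0.169 to 0.225 in stressed rats. Markers of striatal projection neurons, the cells of the striatum next to the PFC, were high in 3 arrays. The centred mean of 12 markers was 0.84 in Control 4, 0.95 in Control 5 and 0.69 in Stress 4, and at most 0.22 in the others. Control 5 alone carried strong choroid plexus signal, with a centred mean of 2.811 over 12 markers against at most −0.087 elsewhere. By the 2000 probe sets of lowest mean, the arrays clustered into a set of Control 1 to 4 (array set 1) and a set of Control 5, Control 6 and all stressed rats (array set 2), so values within array set 2 rest on 2 controls. The labels do not say what set these arrays apart. The centred mean of endothelial markers (8 measured) also moved with the groups, at −0.014 to 0.149 in controls and −0.142 to −0.016 in stressed rats. The genes of that list differed. Ocln ran from 6.31 to 6.81 in controls and from 6.08 to 6.36 in stressed rats. Slco1c1 (8.52 to 8.9 and 8.4 to 8.56) and Tie1 (6.08 to 6.31 and 5.95 to 6.11) also ran lower in stressed rats. The highest Tek value was 7.35 in controls and 7.13 in stressed rats. Emcn (6.46 to 6.86 and 6.49 to 6.58) and Flt1 (7.98 to 8.27 and 8.08 to 8.18) stayed within the control range in stressed rats. Cldn5 (6.62 to 6.97 and 6.69 to 6.91) and Cdh5 (6.32 to 6.43 and 6.29 to 6.61) showed no fall like that of Ocln. Blood cell markers (5 measured) differed more in the mean, by −0.68, but overlapped, at −0.576 to 0.947 in controls and −0.855 to 0.075 in stressed rats. The part of either list in the results was not tested. Cortical markers were well expressed in both groups, with Cux2 of upper layers at 7.57 ± 0.149 and 7.61 ± 0.104 and Fezf2 of deep layers at 8.69 ± 0.275 and 8.82 ± 0.130 (mean ± SD of log2 values, controls then stressed rats, n = 6 each). They were not even between arrays. Fezf2 was lowest in Control 4 (8.35), Control 5 (8.34) and Stress 4 (8.61), the arrays of high striatal markers. Bcl11b, also on the deep-layer list, was instead highest in these arrays, as the striatal markers were, at 8.01, 7.96 and 7.97. Which cells its signal came from was not tested.

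Each gene was compared between stressed and control rats, to ask whether its mRNA differed at the 2 h time point. None of the 8 genes passed the threshold of an adjusted p of 0.05 in limma, which 0.0435% of the 16085 probe sets tested did (0.0373% higher and 0.00622% lower in stressed rats). An unadjusted p under 0.05 was met by 0 of the 8 as well, against 6.35% of all probe sets (3.43% higher, 2.92% lower). The mean was higher in stressed rats for 5 of the 8, a share close to the 53.0% of all probe sets. For 0 of the 8 did the groups fail to overlap, against 0.441% of probe sets overall. The median log2 difference, stressed minus control, was 0.030 over the 8 genes and 0.0039 over all probe sets. The median size of the difference was 0.0451 for these genes and 0.0361 for all, while the median fitted SD within groups was 0.109 and 0.0834.

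**Figure D1:**
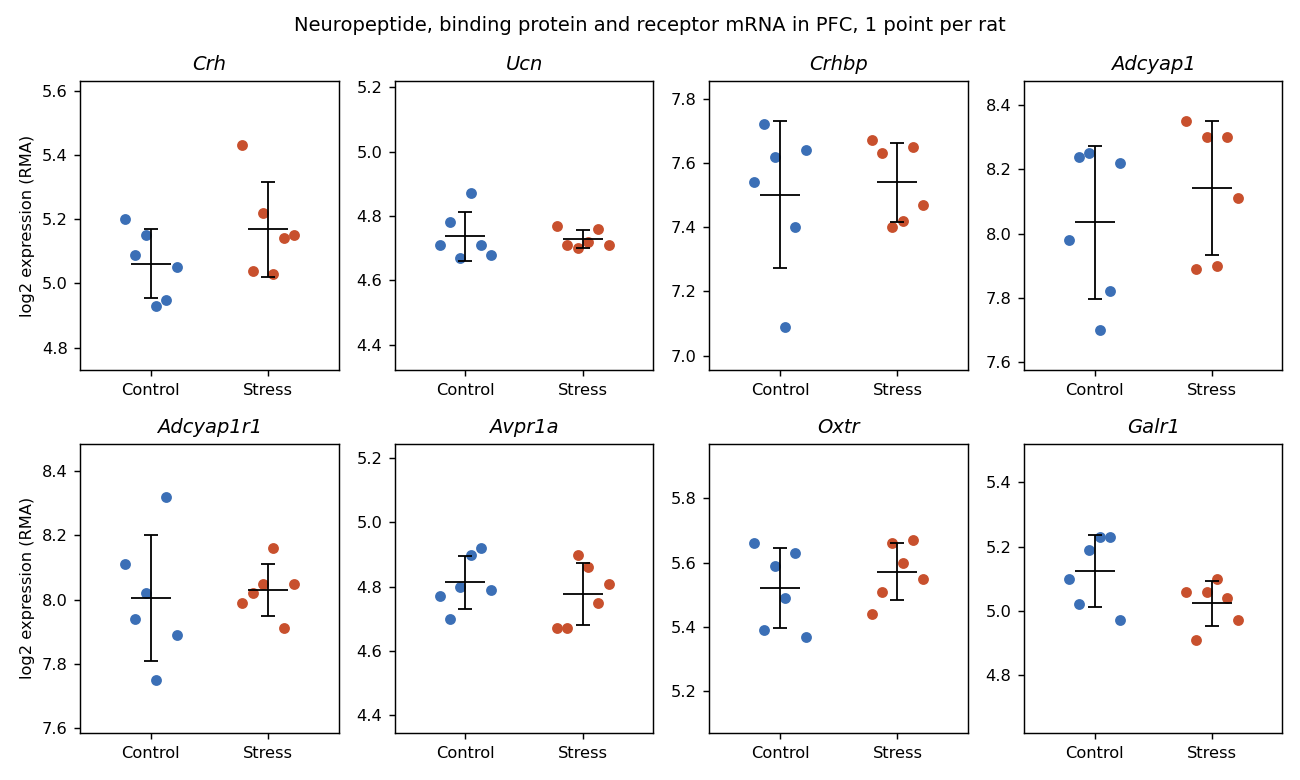
Log2 expression (RMA, vertical axis) of the 8 measured genes in each rat, with Control in blue and Stress in red; horizontal bars and whiskers are the group mean and SD (n = 6 each), and every panel spans the same number of log2 units. The groups overlap in every panel, and Crhbp is lowest in a control rat at 7.09.

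The ligands come first. Crh, which encodes CRH itself, had log2 values of 4.93 at the lowest, 5.07 at the median and 5.20 at the highest in controls. In stressed rats these values were 5.03, 5.15 and 5.43. Only 2 of 6 stressed rats lay above every control, and Stress 1 was the highest of all at 5.43. The difference was 0.11 (SE 0.0677, 95% interval −0.036 to 0.25, limma adjusted p = 0.840), or 1.08-fold with an interval of 0.975 to 1.19. It was 0.057 without Stress 1, and 0.17 within array set 2 (exact permutation p = 0.214, two-sided).

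Ucn, which encodes urocortin, a CRH-related peptide that binds both CRH receptors, ran from 4.67 through a median of 4.71 to 4.87 in controls. It ran from 4.70 through 4.72 to 4.77 in stressed rats, inside the range of the controls. The difference was −0.0046 (SE 0.037, 95% interval −0.084 to 0.075, limma adjusted p = 0.993), so the interval in fold terms was 0.943 to 1.05. This was the narrowest interval among the 8 genes, although RMA understates differences of dim probe sets and Ucn lay less than 1 log2 unit above the filter level. Its direction turned in several settings, for example to 0.022 without Control 4 and 0.039 within array set 2.

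Adcyap1, the PACAP gene, was lowest at 7.70, median 8.10 and highest at 8.25 in controls. In stressed rats it was 7.89, 8.20 and 8.35, and 3 of 6 stressed rats lay above every control. The difference was 0.11 (SE 0.112, 95% interval −0.13 to 0.35, limma adjusted p = 0.930), or 1.08-fold with an interval of 0.911 to 1.27. The low values belonged to rats of both groups: Control 4 stood at 7.70, Control 5 at 7.82, Stress 2 at 7.89 and Stress 4 at 7.90. Without Control 4 the difference was 0.039, and adding each array's striatal mean to the fit gave −0.048.

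Crhbp encodes the CRH-binding protein, which holds CRH and urocortin away from their receptors and in rodent cortex is made largely by somatostatin interneurons. It was lowest at 7.09, median 7.58 and highest at 7.72 in controls, and 7.40, 7.55 and 7.67 in stressed rats. Control 4 lay below every other rat, and the other 11 rats lay between 7.40 and 7.72. The difference was 0.036 (SE 0.0935, 95% interval −0.16 to 0.24, limma adjusted p = 0.974), or 1.03-fold with an interval of 0.892 to 1.18. Without Control 4 it was −0.046, again with no call.

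Among the receptors, Adcyap1r1, the PAC1 gene, ran from 7.75 through a median of 7.98 to 8.32 in controls and from 7.91 through 8.04 to 8.16 in stressed rats. The controls enclosed the stressed rats on both sides, with SDs of 0.196 and 0.0833 in the respective groups. The difference was 0.024 (SE 0.0777, 95% interval −0.14 to 0.19, limma adjusted p = 0.976), and it was −0.077 within array set 2 and −0.026 without Control 4.

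Avpr1a, the V1a receptor gene, ran from 4.70 through 4.80 to 4.92 in controls and from 4.67 through 4.78 to 4.90 in stressed rats. Only 2 stressed rats lay below every control. The difference was −0.038 (SE 0.0504, 95% interval −0.15 to 0.070, limma adjusted p = 0.949). It was −0.016 without Stress 2, −0.063 without Stress 3, −0.077 within array set 2 and −0.0038 with the striatal mean in the fit. Oxtr, the oxytocin receptor gene, ran from 5.37 through 5.54 to 5.66 in controls and from 5.44 through 5.57 to 5.67 in stressed rats. The difference was 0.052 (SE 0.0584, 95% interval −0.073 to 0.18, limma adjusted p = 0.936), with 2 of 6 stressed rats above every control. It was 0.022 without Control 6 and 0.080 without Control 1.

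Galr1, the GAL1 receptor gene, had the smallest p of the 8, and it alone among them had every stressed rat below the mean of the controls. It ran from 4.97 through 5.14 to 5.23 in controls and from 4.91 through 5.05 to 5.10 in stressed rats. The difference was −0.10 (SE 0.0512, 95% interval −0.21 to 0.0096, limma adjusted p = 0.808), or 0.933 of the control level with an interval of 0.864 to 1.01. The exact permutation test over 924 labellings gave an unadjusted two-sided p of 0.0866. Within array set 2 the difference was −0.079. The 2 highest values, both 5.23, were those of Control 4 and Control 5. Adding the striatal mean to the fit gave −0.055, and leaving out Control 4, Control 5 and Stress 4 gave −0.062. 

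**Figure D2:**
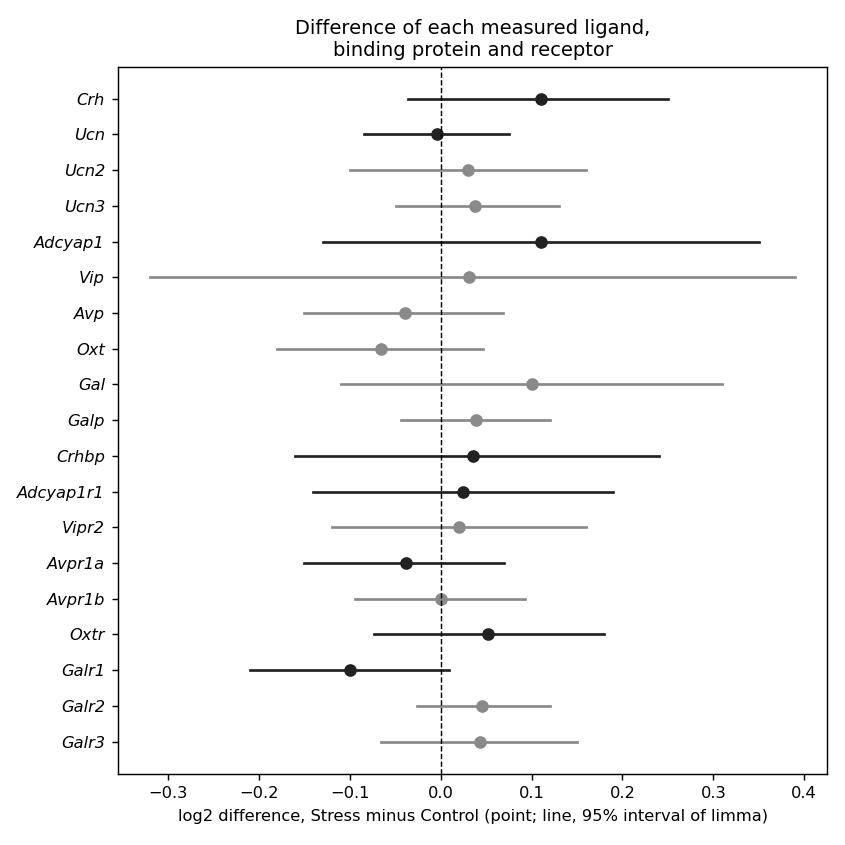
Log2 difference, Stress minus Control (horizontal axis; points), with the 95% interval of limma (lines) for every measured ligand, binding protein and receptor gene of these systems; black, the 8 genes of the list, grey, related genes. Every interval contains 0, and that of Vip is the widest, from −0.32 to 0.39.

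Related ligands and receptors were then read from the same fit. Of 10 ligands tested 7 had a higher and 3 a lower mean in stressed rats, and of 8 receptors 5 were higher and 3 lower, with 0 past the threshold and 0 with an unadjusted p under 0.05 in either list. These lists include the genes above. Gal, the galanin precursor, was at 0.10 (SE 0.0971, limma adjusted p = 0.917), and at 0.18 without Control 4, which held the highest value at 5.15. Oxt and Avp, the oxytocin and vasopressin precursors made mainly in the hypothalamus, were at −0.066 (SE 0.0521) and −0.039 (SE 0.0505), and Oxt was at 0.067 within array set 2. Vip, the interneuron peptide of the PACAP family, was at 0.031 with the largest error of the ligands (SE 0.165). The urocortin genes Ucn2 and Ucn3 were at 0.030 and 0.038, and Galp, galanin-like peptide, at 0.039. Single arrays moved these, Ucn3 to 0.0098 without Control 3 and Galp to 0.023 without Stress 3. Of the other receptor genes, Vipr2, a receptor shared by VIP and PACAP, was at 0.020, Avpr1b at −0.00017, Galr2 at 0.045 and Galr3 at 0.043. Vipr1 and Avpr2 had no single-symbol probe set.

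Genes that process, degrade or relay these peptides were compared in the same way. None of the 59 genes tested in these lists, Crhbp among them, passed the threshold in limma. Of 9 binding proteins and peptidases 4 were higher and 5 lower. Examples were Lnpep, the oxytocin-degrading aminopeptidase, at 0.059 (SE 0.0393), Prep, prolyl endopeptidase, at 0.054 and Ece2, an endothelin-converting enzyme, at −0.18 (SE 0.143; −0.091 without Control 5). Of 11 genes for peptide processing and dense-core granules 5 were higher and 6 lower. Pcsk1n, which encodes proSAAS, an inhibitor of the prohormone convertase PC1, was at −0.17 (SE 0.0625, limma adjusted p = 0.669). It was the only gene of the 59 with an unadjusted limma p under 0.05, a smaller share than the 6.35% of all probe sets. Its group means ± SD were 10.25 ± 0.104 and 10.08 ± 0.130 (n = 6 each), and 2 of 6 stressed rats lay below every control. Chga, chromogranin A, was at −0.078 (SE 0.0434) and Cadps2, a dense-core vesicle priming factor, at 0.064.

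Transducers of Gs and cAMP, the route of CRH and PAC1 receptors, had 9 of 17 tested genes higher and 8 lower. The lowest difference was that of Gnas, singled out after its values were seen, at −0.51 (SE 0.282, limma adjusted p = 0.819). Gnas stood at 5.39 in Control 4 and 5.51 in Control 5, and at 4.26 or less in the other rats. Its control median of 3.97 and stressed mean of 3.93 lay under the filter level of 4. Crem and Creb1, transcription factors that cAMP activates through protein kinase A, were at 0.16 (SE 0.0824, limma adjusted p = 0.806) and 0.12 (SE 0.0585, limma adjusted p = 0.803). Adcy6, an adenylyl cyclase, was at 0.072 (SE 0.0337, limma adjusted p = 0.791), with 5 of 6 stressed rats above every control. These genes were named for their small p. The exact permutation p was 0.0216 for Adcy6, 0.108 for Crem and 0.0887 for Creb1 (two-sided, unadjusted). Within array set 2 the difference of Adcy6 was 0.064 (exact permutation p = 0.214). Within array set 2 Crem was at 0.24 and Creb1 at 0.060. Gnal, the G protein alpha subunit typical of striatum and olfactory epithelium, was singled out after its values were seen. It stood at 9.59 in Control 4, 9.70 in Control 5 and 9.51 in Stress 4 and was lower in the other 9 rats, the 3 high rats being those with high striatal markers. Transducers of Gq and calcium had 5 of 12 higher and 7 lower, with Itpr2 at 0.061 and Itpr3, another inositol trisphosphate receptor, at −0.043, and Prkcb, a protein kinase C, at 0.051. Genes of receptor desensitisation had 6 of 10 higher and 4 lower. The receptor kinase genes Grk3 and Grk5 were at 0.10 (SE 0.0506) and −0.16 (SE 0.0761; −0.089 without Control 5), and Arrb1, beta-arrestin 1, at −0.022 (−0.0018 without Stress 6).

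The promoters of the genes were read because CRH and PACAP receptors act on transcription through cAMP and the cAMP response element (CRE). RefSeq promoters of the GRCr8 build were found for 9 of the 10 genes, all but Crh. In the 250 bases before the annotated start, the full CRE, TGACGTCA, which reads the same on both strands, occurred in 1 of the 9, Ucn, and in 1.78% of 27457 genes. The half-site TGACG, searched on both strands and contained in the full CRE, occurred in Ucn, Crhbp, Crhr2, Oxtr and Avpr1a and in 20.0% of genes. Other motifs were searched too. The half-site AGAACA of the glucocorticoid response element occurred in Galr1 and in 18.5% of genes, and the full element in no member. The TATA box, TATAAA, occurred in Avpr1a and Adcyap1 and in 8.93% of genes. Part of the Ucn promoter (chr6:30957946-30958013, plus strand) and of the Crhbp promoter (chr2:28439512-28439576, minus strand) are shown as the urocortin and binding protein examples, each on its own gene's strand with the matched letters in capitals.
Ucn: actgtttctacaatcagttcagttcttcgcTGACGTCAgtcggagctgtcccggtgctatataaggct
Crhbp: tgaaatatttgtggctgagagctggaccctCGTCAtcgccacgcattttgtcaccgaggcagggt
The Ucn match lay 110 to 103 bases before the start and the Crhbp match 100 to 96 bases before it. Both genes had differences close to 0, as given above, and a match describes letters only.

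With little difference between groups, the variation of these genes was mainly between rats. Adcyap1 and Crh were low in the rats with high striatal markers. Adcyap1 fell with the striatal marker mean over the 12 arrays (Pearson r = −0.88, permutation p = 0.00037, adjusted p = 0.00296 over 8 relations; Spearman rho = −0.82, permutation p = 0.00184, adjusted p = 0.0147). The relation was −0.77 without Control 4 and Control 5, −0.87 within array set 2 and −0.67 over the 9 arrays without the 3 of highest striatal mean. Crh had r = −0.70 (permutation p = 0.00945, adjusted p = 0.0353) and rho = −0.68 (permutation p = 0.0189, adjusted p = 0.0756). Its r was −0.45 without Control 4 and Control 5, −0.68 within array set 2 and −0.29 over those 9 arrays, so the relation rested on the high arrays. For Crhbp the r of −0.62 did not pass after adjustment (permutation p = 0.0269, adjusted p = 0.0539; rho = −0.41, permutation p = 0.191, adjusted p = 0.382), and it was −0.25 without Control 4 and Control 5, −0.52 within array set 2 and 0.23 over the 9 arrays.

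Galr1 ran the other way, with r = 0.69 (permutation p = 0.0132, adjusted p = 0.0353; rho = 0.61, permutation p = 0.0398, adjusted p = 0.106), 0.33 without Control 4 and Control 5, 0.66 within array set 2 and 0.23 over the 9 arrays, so it too rested on the high arrays. Permutation p-values after adjustment for Ucn, Adcyap1r1, Avpr1a and Oxtr were 0.404, 0.402, 0.136 and 0.504 for r. The r of Adcyap1r1 depended on the arrays used. It was 0.33 over all 12, 0.69 without Control 4 and Control 5, 0.86 within array set 2 and 0.44 over the 9 arrays. Vip was singled out after its values were seen, so its r of −0.88 and rho of −0.76 are a description with no test. Its 3 lowest rats, Control 5 at 6.17, Stress 4 at 6.19 and Control 4 at 6.31, were the 3 with the highest striatal mean. The r of Vip was −0.78 without Control 4 and Control 5, −0.92 within array set 2 and −0.47 over the 9 arrays. In whole tissue, fewer cells of a type and less mRNA per cell cannot be told apart.

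**Figure D3:**
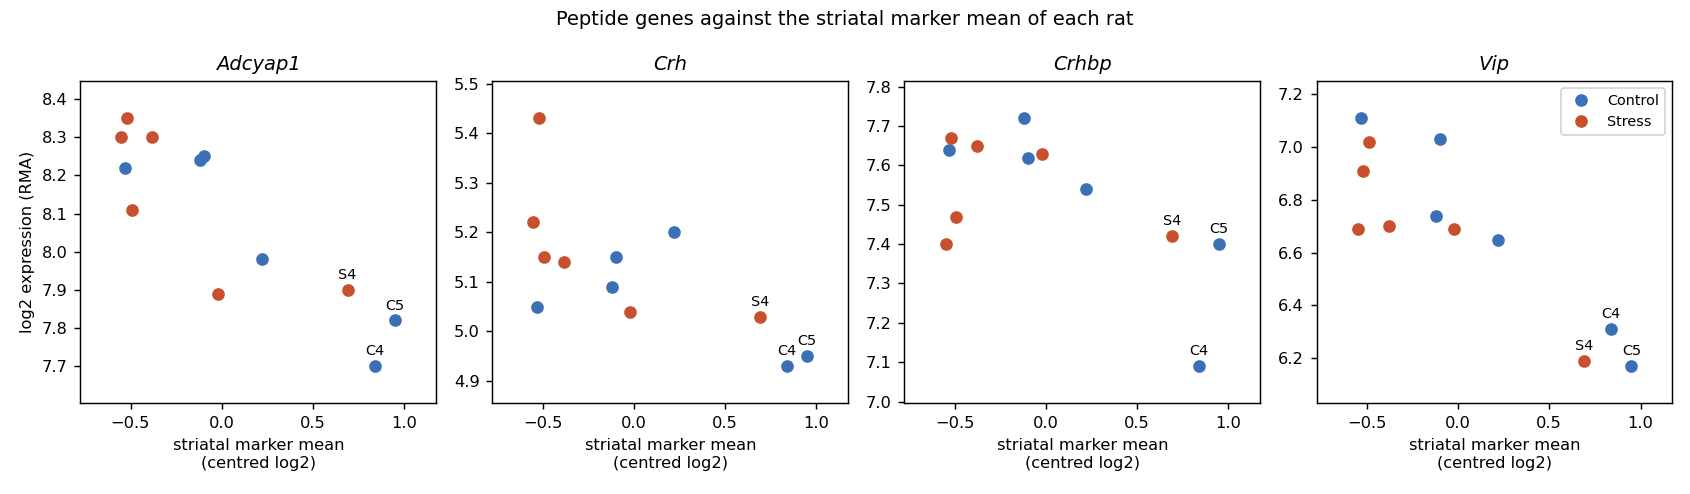
Log2 expression (RMA, vertical axes) of Adcyap1, Crh, Crhbp and Vip against the centred mean of 12 striatal projection neuron markers (horizontal axes) in each rat, with Control in blue and Stress in red; C4, C5 and S4 are Control 4, Control 5 and Stress 4. These 3 rats sit at the right, and they hold the 3 lowest Vip values.

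The genes were also set against each other over the 12 rats, in 28 pairs. Crhbp and Avpr1a moved in opposite directions (r = −0.81, permutation p = 0.00047, adjusted p = 0.0132; rho = −0.87, permutation p = 0.00038, adjusted p = 0.0106). The r was −0.83 without Control 4 and Stress 3, −0.90 within array set 2 and −0.79 over the 9 arrays of lower striatal mean. Avpr1a spanned only 0.25 log2 units over all rats. Crh and Adcyap1 moved together (r = 0.75, permutation p = 0.00286, adjusted p = 0.0400; rho = 0.83, permutation p = 0.00156, adjusted p = 0.0218), with r = 0.65 without Stress 1 and Control 4, 0.80 within array set 2 and 0.48 over the 9 arrays. The ligand and receptor of the PACAP system, Adcyap1 and Adcyap1r1, had r = −0.19 (permutation p = 0.548, adjusted p = 0.731; rho = −0.21, permutation p = 0.514, adjusted p = 0.723), but −0.66 without Control 4 and Control 5 and −0.74 within array set 2. All values of a rat share 1 array and 1 dissection.

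**Figure D4:**
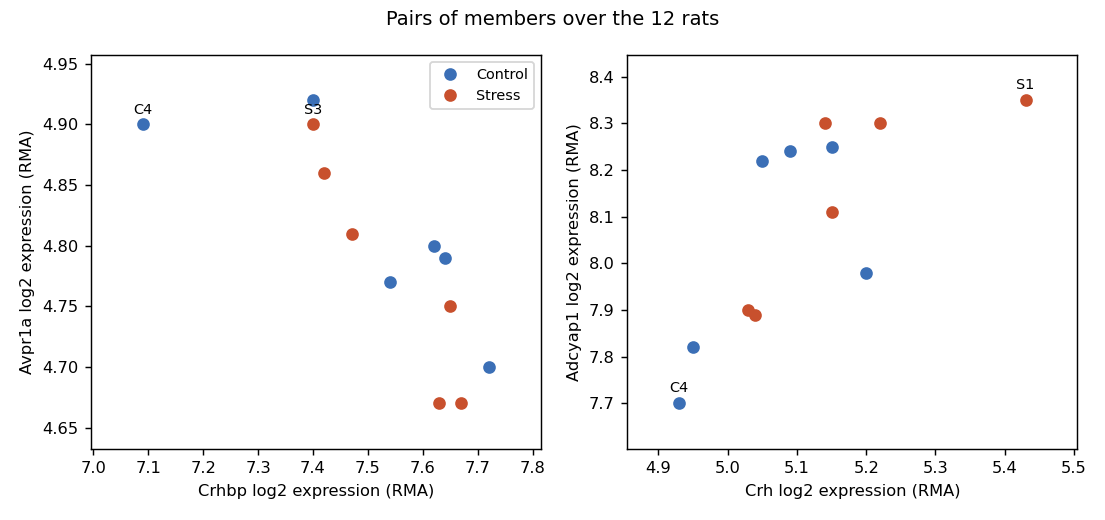
Avpr1a against Crhbp (left) and Adcyap1 against Crh (right), all in log2 expression (RMA), 1 point per rat, with Control in blue and Stress in red; C4, S3 and S1 are Control 4, Stress 3 and Stress 1. Avpr1a is lower where Crhbp is higher (r = −0.81), and Adcyap1 is higher where Crh is higher (r = 0.75).

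Across all tested genes, those whose values over the 12 arrays were most like each member were listed as a description. Adcyap1 was most like Chrna5, a nicotinic receptor subunit (r = 0.94, rho = 0.94), and Rspo3, a Wnt pathway ligand (r = 0.93, rho = 0.86). Galr1 was most like Nnat, neuronatin (r = 0.94, rho = 0.93), and Cfap54 (r = 0.92, rho = 0.91). Crhbp was most like Syt5, a synaptotagmin (r = 0.93, rho = 0.84), and Cyb561d2 (r = 0.91, rho = 0.80), and Crh like Nxph3, a neurexophilin (r = 0.90, rho = 0.80), and Basp1 (r = 0.89, rho = 0.81). For the other members the r values of the 2 most alike genes ran from 0.84 to 0.90. They were Gstcd and Nanos2 for Ucn, Ift122 and Prr29 for Adcyap1r1, Pan3 and Plscr4 for Avpr1a, and Kremen2 and Spdye4 for Oxtr.

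**Figure D5:**
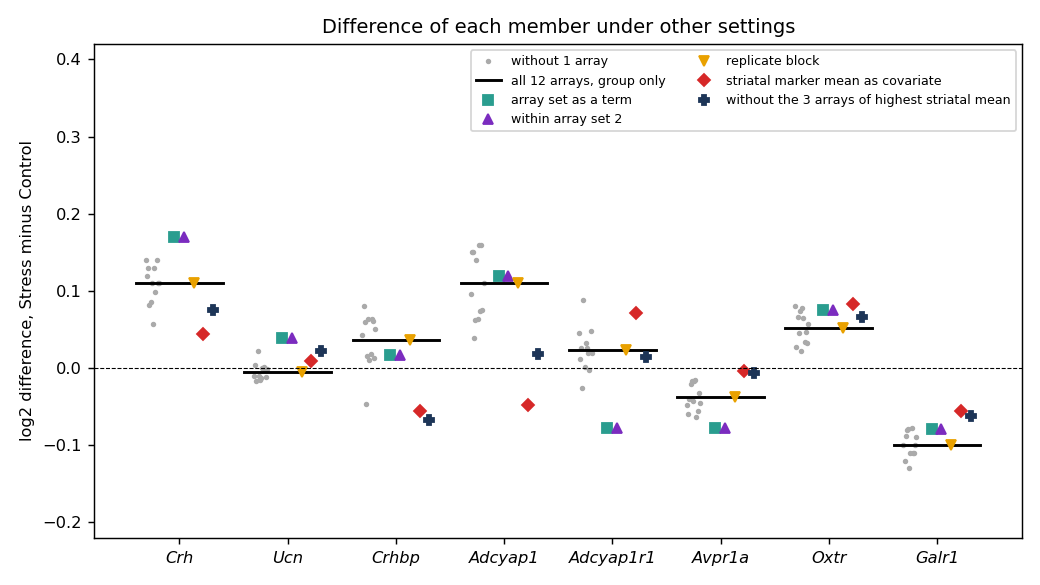
Log2 difference, Stress minus Control (vertical axis), of each member with all 12 arrays and group as the only term (black line), without each array in turn (grey points) and under 5 other settings (coloured symbols). Ucn, Crhbp, Adcyap1 and Adcyap1r1 lie on both sides of 0, and Crh, Avpr1a, Oxtr and Galr1 keep their side in all settings drawn.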

How the data were processed

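Total RNA of 250 ng per rat was labelled with random primers and hybridised to Affymetrix Rat Gene 1.0 ST arrays. The authors deposited log2 expression values per probe set, made with RMA of oligo (version 1.58.0), which corrects background, quantile-normalizes arrays and summarises probes, so a shift shared by most genes is removed. The table held 29214 probe sets, of which 18644 carried 1 gene symbol in the platform annotation, 962 several and 9608 none listed. Symbols were updated by gene identifier (99.0% matched). No genome build of the arrays was named in these sources.

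Here, lmFit and eBayes of limma (version 3.58.1, R 4.3.3) were fitted to all 16085 single-symbol probe sets with a mean above 4, with group as the only term and Benjamini-Hochberg adjustment. The script was tested on simulated data. The level and test follow the methods of the study. Each gene is represented by its probe set of highest mean. Permutation tests were two-sided, exact over 924 labellings (28 within array set 2) for group differences, or with 100000 draws for correlations. Array sets came from Ward clustering of the 2000 probe sets of lowest mean. Complete linkage separated Control 1 and Control 2 instead, and average linkage Control 1 alone. Array number limits precision. Members and gene lists were chosen with earlier results of these data known. The text names all members, all ligands and receptors measured, the 3 genes of smallest p in each other list, and the 2 genes most like each member.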

Additional observations from a re-analysis of the deposited data

Results flagged for a closer look

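In 68 groups of 6 rats (34 named genes, each group apart), 5 values stood apart from the rest of their group by a gap above Dixon's 95% critical value for 6 samples, a limit that chance passes in about 1 of 20 groups. None was a value of the 8 members. Galr3 was at 5.49 in Control 1, with the next control at 5.27. Itpr3 was at 5.26 in Control 1 (next 5.14), and Grk5 at 7.39 in Control 5 (next 7.02), the array with choroid plexus signal. Ucn3 was at 4.73 in Stress 2 (next 4.79), and Arrb1 at 10.01 in Stress 6 (next 10.12).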

How the results depend on the processing

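No member passed the threshold under any of the 192 combinations of member and alternative run, and 16 of these had the opposite direction. Not all 192 are separate tests. Averaging probe sets carried no p, the exact permutation p was unadjusted, and the 2 array set alternatives share their differences. With array set as a term, which equals the difference within array set 2 because array set 1 holds controls only, Ucn was at 0.039, Adcyap1r1 at −0.077, Ucn2 at −0.041, Oxt at 0.067, Vipr2 at −0.091 and Avpr1b at 0.061, and 1 probe set passed the threshold in either fit, against 7. With the striatal marker mean as covariate 11 passed, and Ucn was at 0.0092, Crhbp at −0.056, Adcyap1 at −0.048, Vip at −0.22, Ucn2 at −0.0054, Ece2 at 0.014 and Cadps2 at −0.016. Without the 3 arrays of highest striatal mean, an alternative chosen after seeing the data, Ucn was at 0.022, Crhbp at −0.067 and Vip at −0.081. Leaving out 1 array at a time gave ranges of −0.017 to 0.022 for Ucn, −0.046 to 0.080 for Crhbp, −0.026 to 0.088 for Adcyap1r1, −0.020 to 0.060 for Ucn2, −0.069 to 0.13 for Vip, −0.026 to 0.052 for Vipr2 and −0.022 to 0.020 for Avpr1b, and 4 to 8 probe sets passed (4 without Control 4, Control 6, Stress 1, Stress 2 or Stress 3, in turn). Replicate numbers 1 to 6 occur in both groups, but the labels pair no rats. Same-numbered rats had correlations of −0.142 to 0.422 in their deviations from group means. Control 1, Control 4 and Control 6 correlated best with the stressed rat of their own number, and the other controls did not. With the replicate number as a block 6 probe sets passed. In that fit Crh stood at 0.11 (SE 0.0424, limma adjusted p = 0.605) and Galr1 at −0.10 (SE 0.0361, limma adjusted p = 0.591). The differences were those of limma's fit without the block, but the SEs there were larger, 0.0677 and 0.0512. Over all alternatives the adjusted p of members ran from 0.450 (Galr1 without Control 6) to 1. Each member had 1 probe set, so averaging probe sets altered nothing. Small differences of other named genes also moved by over 1.5 times without single arrays, such as Avp, at −0.066 to −0.011, and Galr3, at 0.018 to 0.085. The dim probe sets of Crh, Ucn, Avpr1a and Galr1 limit what could be seen, since RMA understates their differences. Their group means lay below the median of every array (5.48 to 5.54), and their correlations carry the same limit. Oxtr lay near that median, at 5.52 in controls and 5.57 in stressed rats. For comparison, Oxt and Avp, made mainly in the hypothalamus, had means of 5.54 and 4.95 over all rats.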
